A study of Mus musculus with 9 samples.

Results

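The vascular endothelial growth factor (VEGF) ligands Vegfa, Vegfb, Vegfc and Pgf, the receptor tyrosine kinases Kdr, Flt1 and Flt4, and the co-receptors Nrp1 and Nrp2 were followed in lung endothelial cells (ECs). All probe sets whose annotation names one of these 9 genes and no other were taken, which gave 22 of the 45101 probe sets on the array. Vegfa had 2 probe sets, Vegfc 3, Flt4 2, and Flt1, Nrp1 and Nrp2 had 4 each, while Vegfb, Pgf and Kdr had 1 each.

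The study asked whether the expression changes of ECs in metastatic lungs depend on VEGF. ECs of NSG mice, a strain that lacks T, B and NK cells, were sorted by flow cytometry as CD31+ cells after gating out hematopoietic, epithelial, fibroblastic and GFP+ cancer cells, with their RNA read on Affymetrix mouse arrays. There were 3 groups of 3 arrays, labelled as biological replicates. The first group came from healthy lungs of mice given control IgG. In the second, mice of 6 to 8 weeks received MDA-MB-231-LM2 cells, a lung-colonizing derivative of a human breast cancer line, through the tail vein, were given control IgG, and were harvested on day 21. The third differed from the second in that the mice received anti-VEGFA antibody B20.4.1.1, which neutralizes mouse and human VEGFA, at 10 mg/kg by intraperitoneal injection. The age of the healthy mice is not in the labels, all mice shared the immunodeficient NSG background, and metastatic mice were chosen for a comparable load, per the methods.

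VEGFA binds the receptors encoded by Kdr (VEGFR2), the main signaling receptor of blood ECs, and Flt1 (VEGFR1), which binds it tightly, signals weakly and also occurs as a soluble decoy. VEGFB and placental growth factor (PGF) bind Flt1 and not Kdr, whereas VEGFC binds Flt4 (VEGFR3), the receptor of lymphatic ECs and of sprouting blood vessels, and after processing also Kdr. Neuropilins have short cytoplasmic tails without kinase activity. They hold VEGFs and class 3 semaphorins at the cell surface, Nrp1 being typical of arterial and Nrp2 of venous and lymphatic ECs.

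Nrp2 and Pgf were the genes whose probe sets passed a test, so the 250 bases before their annotated start sites are shown with those of Nrp1, the paralog of Nrp2, for comparison. The sequences are RefSeq promoter windows of build GRCm38.p6, read 5′ to 3′ on the strand of the gene. The Nrp2 window ends directly before the annotated gene, whereas those of Nrp1 and Pgf lie within the annotated span of their genes. Capitals mark the core of the hypoxia response element, searched as ACGTG and GCGTG on both strands, so that a core on the other strand reads CACGT or CACGC.
Nrp2, chr1:62703067-62703316, plus strand: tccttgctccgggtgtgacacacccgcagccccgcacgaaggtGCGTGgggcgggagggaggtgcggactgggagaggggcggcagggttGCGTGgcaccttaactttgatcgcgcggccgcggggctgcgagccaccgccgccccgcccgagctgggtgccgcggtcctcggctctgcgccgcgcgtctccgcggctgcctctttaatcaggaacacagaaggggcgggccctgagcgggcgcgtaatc
Nrp1, chr8:128358823-128359072, plus strand: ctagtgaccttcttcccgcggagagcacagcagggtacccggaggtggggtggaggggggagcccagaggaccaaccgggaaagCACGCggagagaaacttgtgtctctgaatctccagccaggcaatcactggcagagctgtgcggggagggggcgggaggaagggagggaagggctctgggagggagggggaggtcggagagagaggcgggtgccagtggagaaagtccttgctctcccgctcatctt
Pgf, chr12:85177314-85177563, minus strand, the upstream of the 2 windows: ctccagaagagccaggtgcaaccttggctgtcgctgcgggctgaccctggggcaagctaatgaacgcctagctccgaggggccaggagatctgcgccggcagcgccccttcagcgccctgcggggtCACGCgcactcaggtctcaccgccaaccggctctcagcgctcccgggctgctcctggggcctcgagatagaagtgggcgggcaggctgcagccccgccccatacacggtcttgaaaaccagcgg

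The Nrp2 window held 2 GCGTG cores on the gene's own strand, starting 207 and 160 bases before the start site. Nrp1 and the upstream window of Pgf held 1 each, on the other strand, and the second Pgf window held none. Either core was present in 7 of the 11 windows of the 9 genes and in 38.6% of all 32851 promoter windows of the same length. The GC box, searched as GGGCGG on both strands and free to overlap the cores, occurred 5 times in the Nrp2 window, in 10 of the 11 windows and in 32.7% of all windows. The 11 windows were rich in G and C, from 59.2% to 76.4%, where the median of all windows was 52.4%. The matches describe the letters of these windows and do not show binding.

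The 9 arrays gave log2 intensities from 5.38 to 14.76, and arrays of one group correlated at r of 0.989 to 0.992 over all probe sets, against 0.976 at the lowest between groups. The mean level of 12 pan-endothelial genes lay between 12.66 and 12.78 in all 9 arrays, so that the markers of the labelled cell type were read in every array. No array stood apart from its group. Intensities are relative, and in sorted bulk RNA a change in the mix of EC types and a change of RNA per cell cannot be told apart. A level is comparable between arrays for 1 probe set and not between probe sets.

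Of the 22 probe sets, 2 differed between metastatic and healthy lungs under control IgG, both of Nrp2 and both higher in metastatic lungs (limma, Benjamini-Hochberg adjusted p under 0.05 over 34945 probe sets). This is 9.09% of the members, where 7.41% of all tested probe sets were called and 4.43% were called higher. Anti-VEGFA against control IgG in metastatic lungs called 0 of the 22, with a background of 0 of 34945. Anti-VEGFA metastatic lungs against healthy lungs called 3 of the 22, or 13.6%, all higher, being the same 2 probe sets of Nrp2 and that of Pgf, where 5.41% of all probe sets were called and 3.32% were called higher. Both comparisons with healthy lungs rest on the same 3 healthy arrays. The median log2 difference of the 22 was -0.04, -0.03 and -0.01 in the 3 comparisons in this order, beside -0.01 for all probe sets in each.

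**Figure D1:**
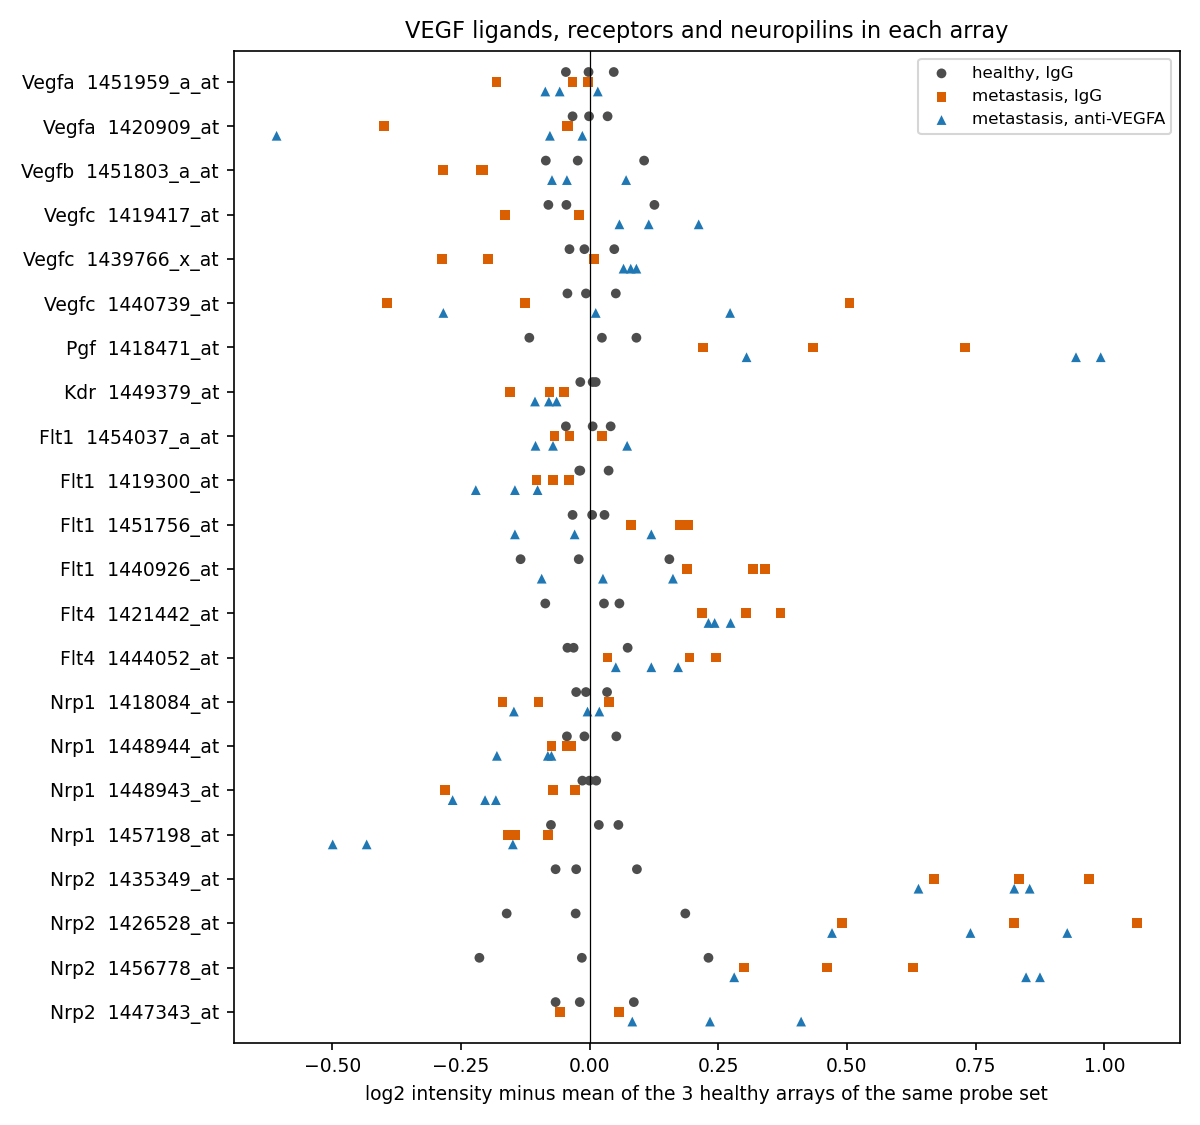
Log2 intensity of each of the 22 probe sets in each of the 9 arrays (x axis), relative to the mean of the 3 healthy arrays of the same probe set. Circles are healthy lungs with IgG, squares metastatic lungs with IgG and triangles metastatic lungs with anti-VEGFA. Both metastatic groups lie to the right of all healthy arrays for 3 of the 4 Nrp2 probe sets, Pgf and Flt4 1421442_at. The Kdr values stay close to the healthy mean.

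Pgf, encoding placental growth factor (chromosome 12, 85166637 to 85177785), was the only one of the 4 member ligands called in any comparison. Its probe set 1418471_at read 8.70, 8.77 and 8.56 in healthy lungs. It read 9.11, 9.41 and 8.90 in metastatic lungs with IgG, and 8.98, 9.62 and 9.67 with anti-VEGFA. All 6 metastatic arrays were above all 3 healthy ones, and the values of the 2 metastatic groups were interleaved. Anti-VEGFA against healthy lungs gave a log2 difference of 0.75 ± 0.17 (SE), a 1.68-fold higher level (adjusted p = 0.0452). Metastatic IgG against healthy lungs gave 0.46 ± 0.13, which did not pass (adjusted p = 0.0788). Between the metastatic groups the difference was 0.29 ± 0.20, with a 95% interval from -0.16 to 0.74 (adjusted p = 0.803).

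The call of Pgf was not stable to single arrays or to the features tested. With all non-control probe sets tested, anti-VEGFA against healthy lungs no longer passed (adjusted p = 0.0523). With the probe sets named to 1 gene, its adjusted p in that comparison was 0.104 without healthy array 1 or healthy array 2, 0.133 without healthy array 3, 0.144 without anti-VEGFA array 2 and 0.123 without anti-VEGFA array 3. In the comparison of metastatic IgG with healthy lungs it passed without metastatic IgG array 3 (0.58, adjusted p = 0.0364). The calls changed in fits with fewer arrays, while the Pgf difference kept its direction. On leaving out single arrays it ran from 0.625 to 0.969 for anti-VEGFA and from 0.328 to 0.583 for metastatic IgG, both against healthy lungs.

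Vegfa, which encodes the growth factor that the antibody neutralizes (chromosome 17, 46016993 to 46032377), passed in no comparison. The probe set 1451959_a_at read 12.52, 12.47 and 12.42 in healthy lungs, 12.44, 12.29 and 12.46 in metastatic lungs with IgG, and 12.48, 12.41 and 12.38 with anti-VEGFA. The 3 groups overlapped. The difference was -0.07 ± 0.09 for metastatic IgG against healthy (adjusted p = 0.693) and 0.03 ± 0.09 for anti-VEGFA against IgG (adjusted p = 0.969). The second probe set, 1420909_at, was low in 2 arrays, metastatic IgG array 1 at 11.61 and anti-VEGFA array 2 at 11.40, while the other 7 arrays lay between 11.93 and 12.04. Its differences of -0.16 ± 0.11, -0.07 ± 0.17 and -0.23 ± 0.15 did not pass. The array measures transcript in the ECs, not the protein that the antibody binds or the VEGFA of the cancer cells.

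Vegfb, a ligand of Flt1 with roles in metabolism and vessel survival (chromosome 19, 6982472 to 6987651), read 9.31, 9.18 and 9.12 in healthy lungs. It read 8.99, 8.92 and 8.99 in metastatic lungs with IgG, below every array of both other groups, and 9.16, 9.27 and 9.13 with anti-VEGFA, within the healthy range. The differences were -0.23 ± 0.09 for metastatic IgG against healthy (adjusted p = 0.158) and 0.22 ± 0.09 for anti-VEGFA against IgG (adjusted p = 0.631), and neither passed. These 2 comparisons share the metastatic IgG arrays.

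Vegfc, the ligand of Flt4 (chromosome 8, 54077532 to 54186454), had differences of -0.16 to -0.01 over its 3 probe sets for metastatic IgG against healthy lungs. Its probe set of highest mean, 1419417_at, read 11.31, 11.14 and 11.10 in healthy lungs, 11.16, 11.02 and 11.16 with IgG, and 11.39, 11.30 and 11.24 with anti-VEGFA. The anti-VEGFA arrays lay above the metastatic IgG arrays in this probe set (0.20 ± 0.09, adjusted p = 0.68) and in 1439766_x_at (0.24 ± 0.10, adjusted p = 0.649). In the third, 1440739_at, the groups overlapped (0.01 ± 0.23), and metastatic IgG arrays ran from 9.85 to 10.74. No Vegfc probe set passed in any comparison. The probe sets of Vegfc disagreed over the 9 arrays, with r between -0.38 and 0.41.

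Vegfd, a further ligand of Flt4 that was not among the 9 genes, had 3 probe sets that were lower in metastatic lungs with IgG, by -0.67 ± 0.12 (adjusted p = 0.0142), -0.50 ± 0.15 (adjusted p = 0.0831) and -0.60 ± 0.19 (adjusted p = 0.102). The first, 1449528_at, read 7.86, 8.07 and 8.15 in healthy lungs, 7.57, 7.21 and 7.31 with IgG, and 7.42, 7.36 and 7.53 with anti-VEGFA. Its call was made against healthy lungs in both metastatic groups (-0.59 ± 0.10 and adjusted p = 0.0132 with anti-VEGFA), whereas the probe set of highest mean, which stands for the gene elsewhere, did not pass.

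Kdr, the main VEGFA receptor (chromosome 5, 75932827 to 75979072), had small differences that did not pass. Its probe set 1449379_at read 13.41, 13.38 and 13.41 in healthy lungs. In metastatic lungs it read 13.32, 13.25 and 13.35 with IgG, and 13.32, 13.34 and 13.30 with anti-VEGFA. All 6 metastatic arrays were below the 3 healthy arrays by a small margin. The difference was -0.09 ± 0.08 for metastatic IgG against healthy, with an interval from -0.27 to 0.09 (adjusted p = 0.548), and 0.01 ± 0.09 for anti-VEGFA against IgG, with an interval from -0.18 to 0.20 (adjusted p = 0.99).

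Flt1, the receptor of VEGFA, VEGFB and PGF (chromosome 5, 147561604 to 147726438), had 4 probe sets that did not run together, with r between -0.13 and 0.67 over the 9 arrays. The 2 brightest, 1454037_a_at and 1419300_at, differed by -0.03 ± 0.08 and -0.07 ± 0.08 between metastatic IgG and healthy lungs. The other 2, 1451756_at and 1440926_at, were at 0.15 ± 0.08 and 0.28 ± 0.10 (adjusted p = 0.333 and 0.143). The probe set 1440926_at read 10.98, 11.15 and 10.86 in healthy lungs, 11.34, 11.32 and 11.19 in metastatic lungs with IgG, and 11.02, 11.16 and 10.91 with anti-VEGFA. Its metastatic IgG arrays lay above both other groups, and anti-VEGFA against IgG gave -0.25 ± 0.10 (adjusted p = 0.627). Flt1 is known to have a soluble form from an earlier polyadenylation site, and the annotation used does not say which form each probe set reads.

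Flt4, the VEGFC receptor (chromosome 11, 49609679 to 49652739), was higher in metastatic lungs by a margin that did not pass. The probe set 1421442_at read 11.88, 11.91 and 11.76 in healthy lungs, 12.22, 12.07 and 12.15 with IgG, and 12.09, 12.12 and 12.08 with anti-VEGFA. The healthy arrays did not overlap with either metastatic group. The differences were 0.30 ± 0.09 for metastatic IgG (adjusted p = 0.0815) and 0.25 ± 0.08 for anti-VEGFA (adjusted p = 0.13), both against healthy lungs, and -0.05 ± 0.09 between the metastatic groups (adjusted p = 0.939). The first passed with all 9 arrays in 1 fit (adjusted p = 0.0474), with dim probe sets left out (0.0361) and with the variance modelled on intensity (0.0114). The second probe set, 1444052_at, gave 0.16 ± 0.09 and 0.11 ± 0.08 against healthy lungs and did not pass.

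Nrp2, the venous and lymphatic neuropilin (chromosome 1, 62703317 to 62818692), rose in both metastatic groups. Its brightest probe set, 1435349_at, read 11.04, 10.88 and 10.92 in healthy lungs. It read 11.78, 11.92 and 11.62 in metastatic lungs with IgG, and 11.58, 11.80 and 11.77 with anti-VEGFA. The 3 healthy arrays lay together below the 6 metastatic arrays, and the metastatic groups overlapped. The level was 1.77-fold higher with IgG (0.82 ± 0.10, adjusted p = 0.00251) and 1.71-fold higher with anti-VEGFA (0.77 ± 0.09, adjusted p = 0.00297) than in healthy lungs. Anti-VEGFA against IgG gave -0.05 ± 0.11, with an interval from -0.30 to 0.20 (adjusted p = 0.949). This comparison shares the metastatic IgG arrays with that of metastatic IgG against healthy lungs.

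The second Nrp2 probe set, 1426528_at, read 10.47, 10.26 and 10.13 in healthy lungs, 11.11, 11.35 and 10.78 with IgG, and 10.76, 11.22 and 11.03 with anti-VEGFA. Healthy arrays were again below all others. The differences from healthy lungs were 0.79 ± 0.15 with IgG (adjusted p = 0.0187) and 0.71 ± 0.14 with anti-VEGFA (adjusted p = 0.0212). With IgG the call was lost without healthy array 2 (adjusted p = 0.0697), healthy array 3 (0.0671) or metastatic IgG array 1 (0.064). With anti-VEGFA it was lost without healthy array 2 (adjusted p = 0.0774), healthy array 3 (0.0749), anti-VEGFA array 2 (0.0695) or anti-VEGFA array 3 (0.0683). On leaving out single arrays the difference of 1426528_at ran from 0.658 to 0.944 with IgG and from 0.606 to 0.834 with anti-VEGFA. The calls of 1435349_at were kept without each of the 6 arrays of either comparison (adjusted p from 0.00339 to 0.0162 with IgG and from 0.00442 to 0.0185 with anti-VEGFA).

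The remaining Nrp2 probe sets gave smaller differences. The third, 1456778_at, was at 0.46 ± 0.13 with IgG (adjusted p = 0.0782) and 0.67 ± 0.18 with anti-VEGFA (adjusted p = 0.067), and its healthy arrays, from 8.56 to 9.01, did not overlap with those of either metastatic group. Its difference between anti-VEGFA and healthy lungs passed without anti-VEGFA array 1 (0.86, adjusted p = 0.0153). The fourth, 1447343_at, overlapped between healthy and IgG lungs (-0.02 ± 0.09, adjusted p = 0.928) and was above the IgG arrays with anti-VEGFA (0.26 ± 0.11, adjusted p = 0.633). The first 3 probe sets followed each other over the 9 arrays with r of 0.86 to 0.96, and the fourth followed them with r of 0.35 to 0.62.

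**Figure D2:**
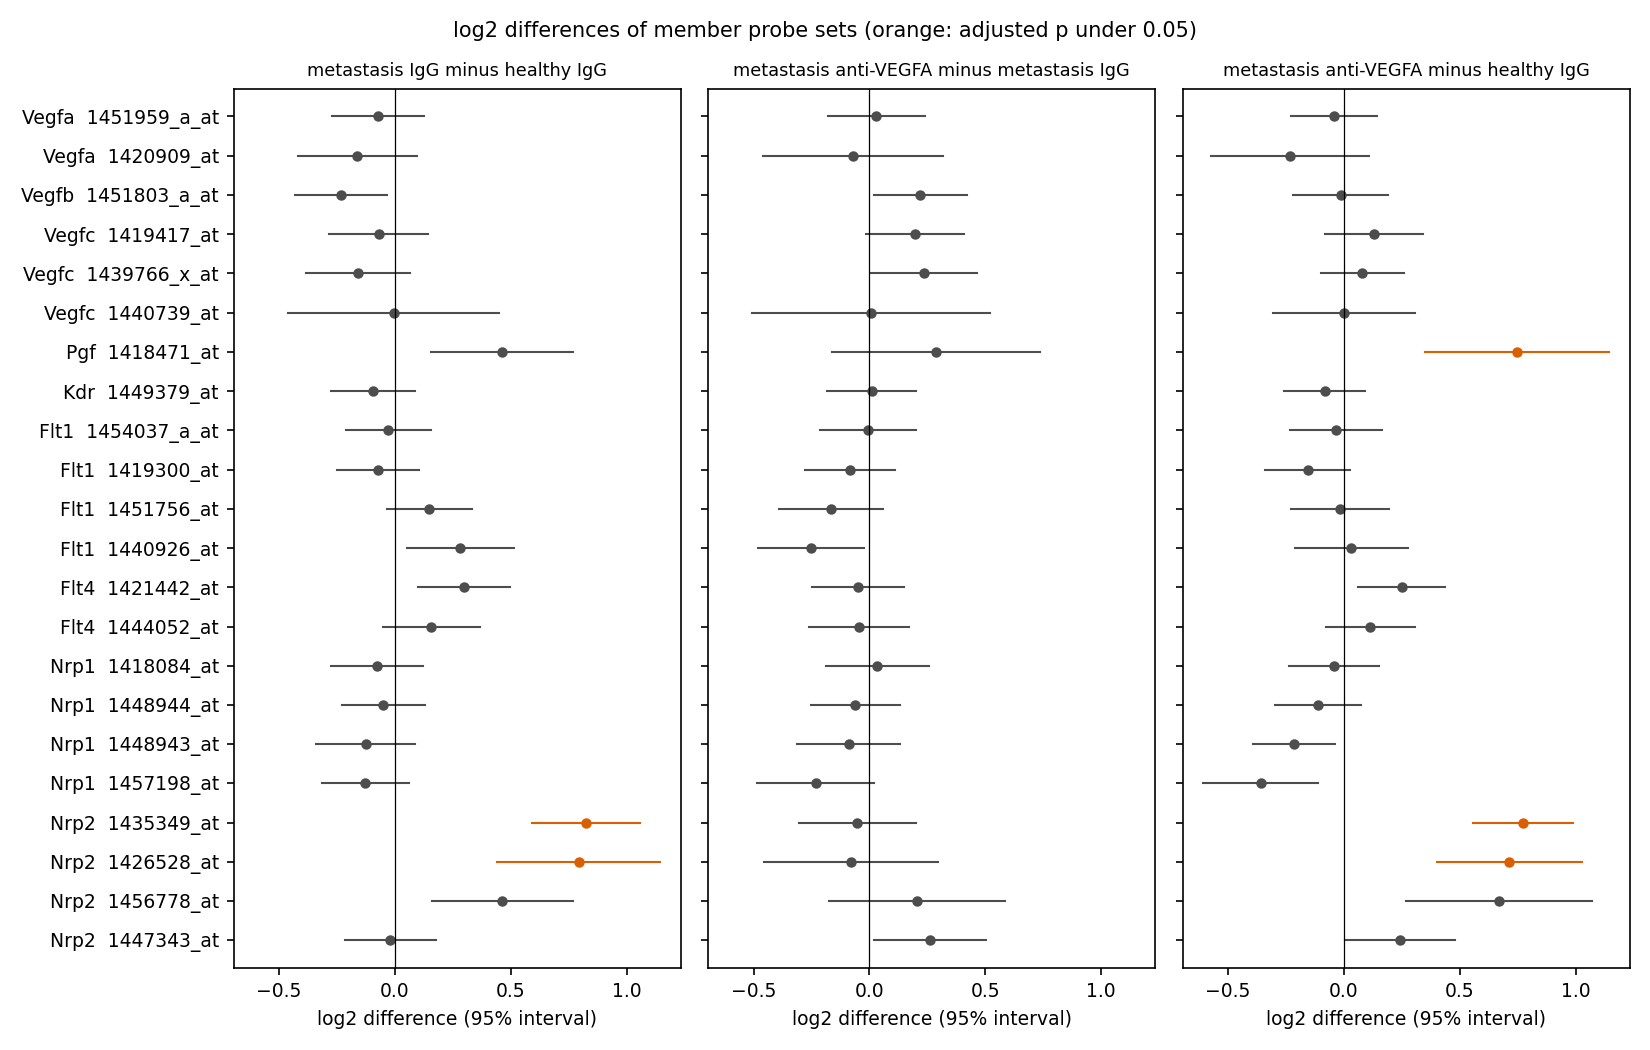
Log2 difference (x axis, point) and its 95% interval (line) for the 22 probe sets in the 3 comparisons. Orange marks an adjusted p under 0.05. The 2 orange points of Nrp2 stand near 0.8 in both comparisons with healthy lungs, Pgf is orange at 0.75 in the right panel, and no point is orange for anti-VEGFA against IgG.

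Nrp1, the co-receptor that pairs with Kdr (chromosome 8, 128358591 to 128505476), did not follow Nrp2. Its 4 probe sets were at -0.13 to -0.05 for metastatic IgG against healthy lungs, with adjusted p from 0.417 to 0.773. The brightest, 1418084_at, read 13.31, 13.29 and 13.35 in healthy lungs, 13.15, 13.36 and 13.22 with IgG, and 13.31, 13.17 and 13.34 with anti-VEGFA, so that the groups overlapped. The dimmest, 1457198_at, was lowest with anti-VEGFA, at 9.89, 9.54 and 9.61 against 10.09, 9.96 and 10.06 in healthy lungs (-0.36 ± 0.11, adjusted p = 0.102). This difference passed without anti-VEGFA array 1 (-0.47, adjusted p = 0.0351). The probe set 1448943_at was also below the healthy arrays with anti-VEGFA (-0.22 ± 0.08, adjusted p = 0.163).

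Whether paired genes changed unequally was tested with log2 differences taken within each array, which array scaling cannot move. Nrp2 relative to Nrp1 shifted by 0.90 between healthy and metastatic IgG lungs and by 0.82 between healthy and anti-VEGFA lungs, each with non-overlapping arrays (exact two-sided permutation test, p = 0.1 and adjusted p = 0.225 over 9 tests). Pgf relative to Vegfa shifted by 0.53 and 0.79 in the same comparisons (exact permutation p = 0.1 for both, adjusted p = 0.225). With 3 arrays against 3 the smallest possible p is 0.1, so none of these could pass. Flt1 relative to Kdr, the weakly signaling over the main receptor, shifted by 0.07 and 0.05 (exact permutation p = 0.2 and 0.6). Between anti-VEGFA and IgG the 3 shifts were -0.09 for the neuropilins, 0.26 for the ligands and -0.02 for the receptors, with overlapping arrays (exact permutation p = 0.6, 0.5 and 0.8). With all probe sets of each gene averaged, the neuropilin shift between anti-VEGFA and IgG was 0.17 (exact permutation p = 0.4) and the receptor shift was -0.14 (exact permutation p = 0.1). Averaged in the same way, the receptor shift between healthy and metastatic IgG lungs was 0.18 (exact permutation p = 0.1).

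**Figure D3:**
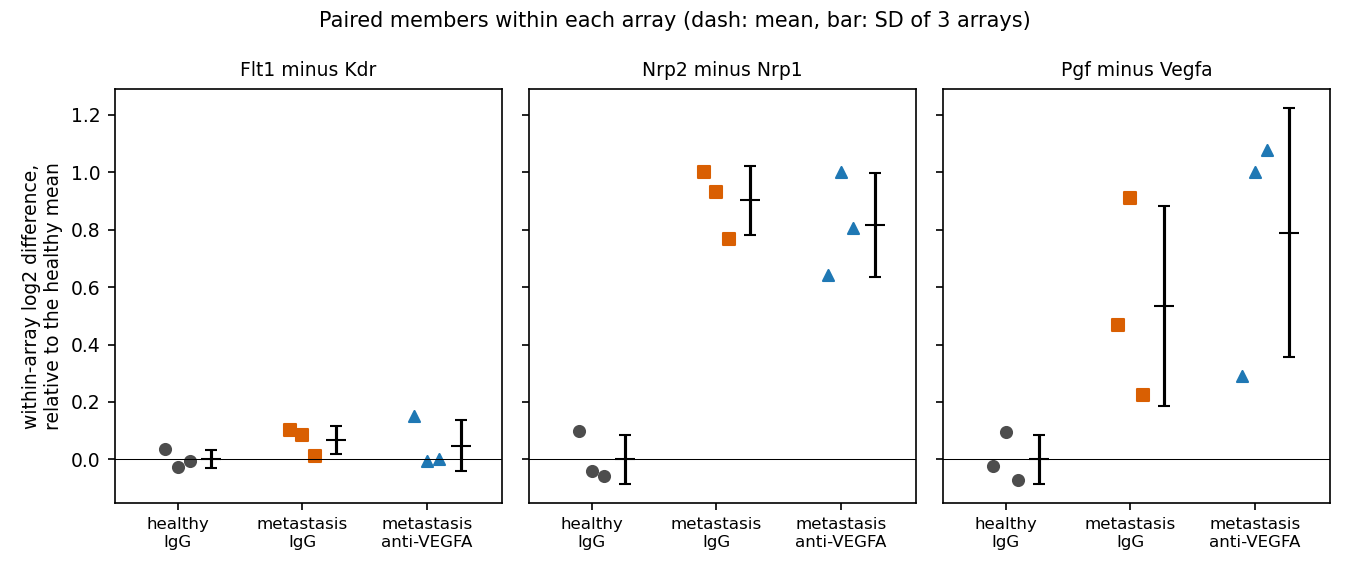
Within-array log2 difference of 3 gene pairs, relative to the mean of the 3 healthy arrays (y axis), with points for arrays, a dash for the mean and a bar for the SD of 3 arrays. Nrp2 minus Nrp1 stands 0.90 and 0.82 above the healthy arrays in the 2 metastatic groups, while Flt1 minus Kdr stays within 0.2 of 0.

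Over 13 of the 22 probe sets the arrays of healthy and metastatic IgG lungs did not overlap, where 27.5% of all probe sets did not. The count was 5 of 22 for anti-VEGFA against IgG, with 12.7% of all probe sets, and 11 of 22 for anti-VEGFA against healthy lungs, with 25.7%. Probe sets of one gene are not independent of each other. For anti-VEGFA against IgG, where limma called nothing, 4 of the 22 probe sets had an unadjusted p under 0.05, one each of Vegfb, Vegfc, Flt1 and Nrp2, with 7.63% of all probe sets. The smallest adjusted p of the 22 was 0.627, and the median half-width of their 95% intervals was 0.22 on the log2 scale.

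The other genes of the pathway were described by lists, each gene by its probe set of highest mean, with 7.93% of 18193 genes called in metastatic IgG against healthy lungs, 5.03% higher and 2.9% lower. Of 29 measured genes of receptor signaling, from phospholipase C and Src kinases to MAP kinases and AKT, 0 were higher and 1 was lower, the transcription factor Nfatc1 (-0.40 ± 0.09, adjusted p = 0.0264), with a list median of 0.00 against -0.001 for all genes. Of 18 genes that bind, dephosphorylate or internalize the receptors, 2 were higher and 1 was lower. Itgb3, the integrin chain that partners Kdr, rose by 1.10 ± 0.14 (adjusted p = 0.00262), the phosphatase Ptpn1 rose by 0.32 ± 0.08 (adjusted p = 0.0439), and Myo6, the motor of receptor endocytosis, fell by 0.38 ± 0.08 (adjusted p = 0.0286). Other probe sets of Myo6 ran from -0.56 to -0.06.

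Among 12 class 3 semaphorins and plexins, ligands and signaling partners of the neuropilins, 2 genes were higher and 1 was lower. Sema3a, a repulsive ligand that binds Nrp1, rose by 1.46 ± 0.10 (adjusted p = 0.000196), and its other probe sets stood at 0.62 and 0.95. Of the plexins, Plxna2 rose by 0.36 ± 0.09 (adjusted p = 0.0439) and Plxna1 fell by 0.61 ± 0.09 (adjusted p = 0.00587). The list median was -0.11. With anti-VEGFA, Sema3a stayed above healthy lungs (1.40 ± 0.16, adjusted p = 0.00188) and Plxna1 below (-0.71 ± 0.09, adjusted p = 0.00341), while Plxna2 was at 0.04 ± 0.12.

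Of 25 genes known to respond to VEGF in ECs, 5 were higher and 3 lower in metastatic IgG than in healthy lungs, with a median of 0.03. Nid2, a basement membrane nidogen, rose by 0.85 ± 0.16 (adjusted p = 0.0159), the tip cell peptide Apln by 0.59 ± 0.11 (adjusted p = 0.0136), Mest by 0.61 ± 0.09 (adjusted p = 0.00471) and Spry4, a feedback inhibitor of receptor tyrosine kinases, by 0.50 ± 0.08 (adjusted p = 0.00708). Angpt2, the last of those called higher, was at 0.34 ± 0.08 (adjusted p = 0.0449). Stc1, a secreted glycoprotein hormone, fell by 0.68 ± 0.10 (adjusted p = 0.00462), and its other probe set was at -0.25. Spry2, unlike Spry4, was lower, at -0.50 ± 0.12 (adjusted p = 0.0452). Rcan1 was also lower, at -0.35 ± 0.08 (adjusted p = 0.0363). Under anti-VEGFA against IgG no gene of the list passed, and the list had a median of -0.04 and values from -0.60 to 0.26. Nid2 was at -0.60 ± 0.16 (adjusted p = 0.488), Apln at -0.35 ± 0.11 (adjusted p = 0.516) and Esm1, a tip cell proteoglycan, at -0.58 ± 0.13 (adjusted p = 0.488). The study reported lower expression of specific VEGF target genes under the antibody, and less vascular area in metastatic nodules. Its gene set tests also gave VEGF targets and signatures of proliferation and angiogenesis as repressed. No set was tested here.

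Against healthy lungs, anti-VEGFA lungs had 2 of these 25 genes higher and 3 lower, with 5.82% of all genes called, 3.81% higher and 2.01% lower. Esm1 was lower by -0.70 ± 0.13 (adjusted p = 0.019), the potassium channel subunit Kcne3 by -0.85 ± 0.15 (adjusted p = 0.0159) and Stc1 by -0.88 ± 0.09 (adjusted p = 0.00152). Spry4 and Mest were higher, at 0.51 ± 0.10 (adjusted p = 0.0215) and 0.56 ± 0.11 (adjusted p = 0.0198). Nid2 and Apln, both at 0.24, did not pass against healthy lungs. An effect that passes in one comparison and not in another is not thereby shown to differ between them.

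Hypoxia-inducible factor (HIF) is a known activator of Vegfa, and 8 of 18 HIF pathway and hypoxia genes were higher and 0 lower in metastatic IgG lungs, with a median of 0.46. Ankrd37, a HIF target, rose by 1.60 ± 0.11 (adjusted p = 0.000212), Adm, which encodes the vasodilator adrenomedullin, by 1.49 ± 0.15 (adjusted p = 0.00106), Ndrg1 by 0.99 ± 0.09 (adjusted p = 0.000567) and the glucose transporter Slc2a1 by 0.96 ± 0.11 (adjusted p = 0.00176). Vegfa did not pass beside them. With anti-VEGFA 8 of the 18 were higher and 1 lower than in healthy lungs, including Hif1a at 0.84 ± 0.09 (adjusted p = 0.00152) and Ankrd37 at 1.54 ± 0.11 (adjusted p = 0.000216). Between the metastatic groups 0 of 103 measured genes, those of all 5 lists and Vegfd, were called. Over all genes limma called 0 of 18193, and 7.4% had an unadjusted p under 0.05.

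**Figure D4:**
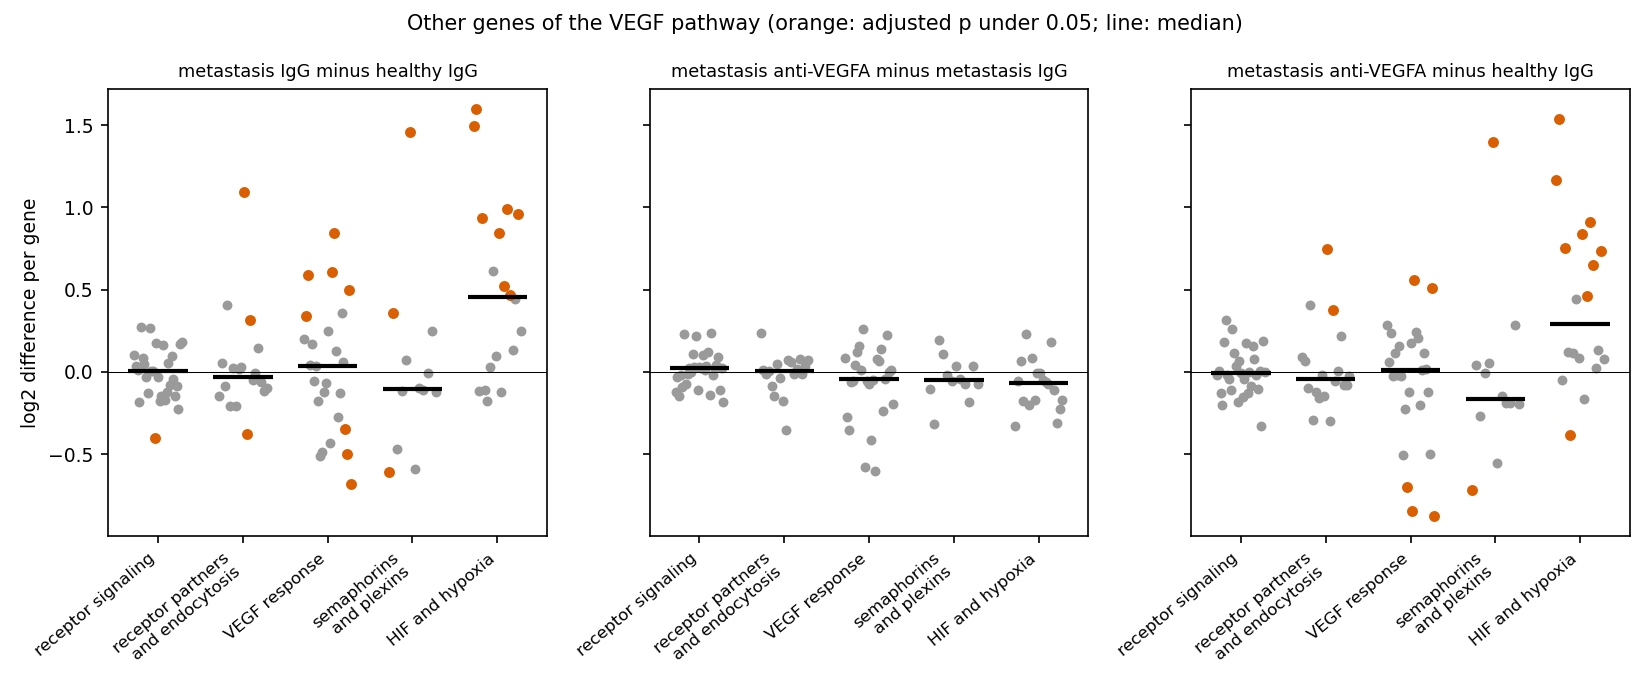
Log2 difference of each gene (y axis, points) in 5 lists of the VEGF pathway for the 3 comparisons, with a line at the list median and orange for an adjusted p under 0.05. The hypoxia list holds 8 orange points above 0 in both comparisons with healthy lungs and 1 below 0 in the right panel, the receptor signaling list holds 1 orange point in the left panel, and the middle panel holds none.

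Genes of other EC types and of other cells moved beside Nrp2, and their part in its rise was not tested. Of 7 venous markers 3 were higher in metastatic IgG than in healthy lungs, among them the chemokine receptor Ackr1 (1.50 ± 0.14) and the venous factor Nr2f2 (1.10 ± 0.08, other probe sets -0.43 to 0.53). The other 4, Ephb4 at -0.05, Vwf at -0.11, Slc6a2 at -0.26 and Vcam1 at -0.53, did not pass, and the list median was -0.05. The mean level of the 7 ran from 11.12 to 11.25 in healthy lungs, from 11.50 to 11.57 with IgG and from 11.62 to 11.63 with anti-VEGFA. Of 5 lymphatic markers 1 was higher, the glycoprotein Pdpn (0.61 ± 0.15), and the mean level overlapped between groups, from 10.21 to 10.49 in healthy lungs and from 10.42 to 10.70 with IgG. Of 9 arterial markers 0 were higher and 2 lower, the Notch target Hey2 (-0.96 ± 0.14) and the kinase Bmx (-0.66 ± 0.09). The mean level of the 9 ran from 10.90 to 10.93 in healthy lungs, from 10.66 to 10.72 with IgG and from 10.57 to 10.67 with anti-VEGFA, so that the metastatic arrays lay below the healthy ones. Of 6 measured aerocyte markers 1 was higher, Apln (0.59 ± 0.11), and 1 lower, the endothelin receptor Ednrb (-0.44 ± 0.09). Of 7 general capillary markers 1 was higher, Lpl (0.53 ± 0.12), and 0 were lower. Their mean level ran from 12.509 to 12.571 in healthy lungs, from 12.650 to 12.685 with IgG and from 12.571 to 12.605 with anti-VEGFA. Pan-endothelial markers had 1 of 12 higher.

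Beyond endothelium, 8 of 12 macrophage markers were higher in metastatic IgG than in healthy lungs, led by the complement gene C1qa (2.65 ± 0.14), although CD45+ and CD11b+ cells were gated out. Their mean level was 8.07 to 8.37 in healthy lungs, 9.11 to 9.31 with IgG and 9.09 to 9.50 with anti-VEGFA. Of 8 pericyte and smooth muscle markers 2 were higher, of 8 fibroblast markers 3 were higher and 1 lower, of 10 epithelial markers 2 were higher, and all 7 proliferation markers were higher. Of 5 measured platelet markers 0 were higher and 1 was lower. The beta-actin 3′ minus 5′ difference, a measure of RNA integrity, was 0.609 to 0.62 in healthy lungs, 0.488 to 0.555 with IgG and 0.526 to 0.62 with anti-VEGFA. That of Gapdh was 0.0969 to 0.176 in healthy lungs, -0.0339 to 0.0995 with IgG and 0.0601 to 0.195 with anti-VEGFA, so that the groups overlapped. The part of these in the values of Nrp2 and Pgf was not tested.

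The genes whose pattern was most like that of a called member were found by Pearson's r over the 9 arrays, as a description. For Nrp2 they were Fscn1, an actin-bundling protein (r = 0.994), the aldo-keto reductase Akr1b8 (r = 0.991) and Ildr2 (r = 0.991). All 3 were higher in both metastatic groups than in healthy lungs, with Fscn1 at 1.06 and 0.94. For Pgf they were Lacc1 (r = 0.972), Tamm41 (r = 0.969) and the calcium-binding protein S100a4 (r = 0.964). The 9 arrays fall into healthy and metastatic ones, so these values mostly follow that step.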

How the data were processed

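The 9 arrays were robust multiarray average (RMA) normalized by the authors in Chipster. What was deposited is a log2 intensity per array for each of 45101 probe sets, used here without further scaling. RMA puts all arrays on one distribution, so a shift of most genes would not be seen, and the number of arrays limits the precision. Genes were named from the platform annotation, which can be old. Probe sets that name 1 gene and are no controls (34945) were tested by the lmFit and eBayes functions of limma (version 3.58.1, R 4.3.3), for 2 groups at a time on their 6 arrays, with Benjamini-Hochberg adjustment over all of them, as in the methods of the study. Calls here are at an adjusted p of 0.05, and the thresholds of the study were an alternative. Intervals are 95%. Genes in lists were represented by their brightest probe set on average over 9 arrays, without a set test. Exact permutation tests and motif searches were run in Python 3.11.15, and the limma step was tested on simulated data.

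Named were all 9 members, up to 4 genes of each list by the largest difference among those called in metastatic IgG against healthy lungs, genes called in other comparisons, up to 2 of each marker list, and the 3 genes closest to each called member by r. Of the VEGF response list, all genes called in metastatic IgG against healthy lungs were named. The members, lists and rules were chosen with earlier results of these data known, so no list is independent support. The labels call the arrays biological replicates. The limma p-values set a group difference against the spread between arrays of a group, with the variance moderated over all tested probe sets. Replicate numbers are shared by the groups, and the main fits did not pair the arrays by them. Deviations from group means correlated at r from -0.07 to 0.04 at the same number and from -0.12 to 0.15 at different numbers. The alternatives were 12 settings and leaving out each array. Some genes of the written lists were not analysed here. Promoter sequences come from RefSeq (GRCm38.p6).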

Additional observations from a re-analysis of the deposited data

How the results depend on the processing

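Nrp2 1435349_at was called against healthy lungs in both metastatic groups under all 11 alternatives that test it by adjusted p (adjusted p from 8.85e-05 to 0.015 with IgG and from 9.08e-05 to 0.0181 with anti-VEGFA). For metastatic IgG against healthy lungs the count of called members was 2. It was 1 of 9 genes with 1 probe set per gene or with a gene's probe sets averaged (fewer features). Over all genes 1640 and 1722 of 18193 were called in these settings. With dim probe sets left out (fewer tested) 5 members were called, beside 2745 of 17473 probe sets. The main fit called 2591 of 34945. Leaving out single arrays gave 1 to 3 members. For anti-VEGFA against healthy lungs the count of called members was 3. It was 1 with the thresholds of the study, and 1 to 5 on leaving out single arrays. A trended, robust variance gave 6 (5 higher, and Nrp1 1448943_at lower), with 2966 rather than 1891 called over all probe sets. The cause was not tested. For anti-VEGFA against IgG the count of called members was 0 throughout. With the replicate block, where Pgf (adjusted p = 0.0606) and Nrp2 1426528_at (adjusted p = 0.0535) lost their calls for anti-VEGFA against healthy lungs, it was 2, 0 and 1, and the calls over all probe sets were 1764 rather than 2591 for metastatic IgG and 1319 rather than 1891 for anti-VEGFA, both against healthy lungs. The labels do not say whether a shared number marks a batch. An array correlated best with its own number in 3 of 18 checks. This check over all probe sets is too coarse for a batch that moves few of them. With the mean of all probe sets of a gene, Nrp2 minus Nrp1 shifted by 0.61 (metastatic IgG against healthy) and by 0.17 in place of -0.09 (anti-VEGFA against IgG) and Flt1 minus Kdr by 0.18 and -0.14 (exact permutation p = 0.1 for both). Of 1032 comparisons of a single value with an alternative, 970 kept direction and side of the threshold, 13 gained a call, 15 lost one, and 34 changed sign, 0 of them called. With a gene's probe sets averaged, Flt1 turned to 0.083 for metastatic IgG against healthy lungs, and for anti-VEGFA against IgG Vegfa turned to -0.021, Nrp1 to -0.088 and Nrp2 to 0.084. On leaving out single arrays, some ranges held both signs before rounding. For metastatic IgG against healthy lungs they were -0.260 to 0.189 (Vegfc 1440739_at) and -0.058 to 0.023 (Nrp2 1447343_at). For anti-VEGFA against IgG they were -0.025 to 0.064 (Vegfa 1451959_a_at), -0.190 to 0.116 (Vegfa 1420909_at), -0.189 to 0.260 (Vegfc 1440739_at), -0.019 to 0.033 (Kdr 1449379_at), -0.060 to 0.029 (Flt1 1454037_a_at), -0.013 to 0.090 (Nrp1 1418084_at), -0.130 to 0.021 (Nrp2 1435349_at), -0.230 to 0.056 (Nrp2 1426528_at), -0.069 to 0.010 (Flt1 minus Kdr) and -0.177 to 0.002 (Nrp2 minus Nrp1). For anti-VEGFA against healthy lungs they were -0.058 to 0.038 (Vegfb 1451803_a_at), -0.136 to 0.142 (Vegfc 1440739_at), -0.088 to 0.000 (Flt1 1454037_a_at), -0.087 to 0.045 (Flt1 1451756_at), -0.035 to 0.110 (Flt1 1440926_at), -0.076 to 0.007 (Nrp1 1418084_at) and -0.004 to 0.076 (Flt1 minus Kdr). The intervals of the 22 probe sets had median half-widths of 0.203 (metastatic IgG against healthy), 0.225 (anti-VEGFA against IgG) and 0.208 (anti-VEGFA against healthy). The widest half-widths were 0.454, 0.513 and 0.400 in the same order. For Pgf in anti-VEGFA against IgG the interval ran from -0.16 to 0.74. Changes above 0.2 were therefore not excluded for every probe set, and these widths bound what 3 arrays per group could show.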
